A study of Mus musculus with 9 samples.

Results

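The genes described here encode the respiratory chain and the ATP synthase of the mouse mitochondrion. They were chosen by gene symbol: symbols of the Ndufa, Ndufb, Ndufc, Ndufs and Ndufv series for complex I, Sdha to Sdhd for complex II, Uqcr for complex III, Cox4 to Cox8 for complex IV and Atp5 for complex V, and the mt-Nd, mt-Co, mt-Cytb and mt-Atp genes of the mitochondrial genome, without pseudogene symbols. The rule found 99 of 34092 gene rows, 86 in the nucleus and 13 in the mitochondrial genome. Of these, 79 nuclear and 13 mitochondrial genes had enough reads to be tested. Symbols alone brought in 4 nuclear genes that are no subunits: Cox4nb, a member of an endoplasmic reticulum complex, Atp5s and Atp5sl, which are named after the ATP synthase, and Atp5l2, which GENCODE annotates as a processed pseudogene of Atp5l (Atp5l2-ps).

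The study sequenced RNA from regulatory T (Treg) cells, the CD4 T cells that express Foxp3 and restrain immune responses, sorted straight from mice and not stimulated. The WT group has the genotype Foxp3gfp, a green fluorescent reporter at Foxp3. The CNS2KO group has the genotype Foxp3deltaCNS2-gfp, in which the conserved noncoding element CNS2 inside Foxp3 is deleted, so both groups carry a reporter in the same gene. The labels state no age, no pooling of animals, nor that samples came from separate mice. The p-values may therefore reflect a purely technical spread between samples. The labels list 6 WT and 3 CNS2KO samples. The number 407 is given to a sample of each genotype, and its columns were left out, so 5 WT libraries (398, 402, 405, 1032 and 1037) were compared with 2 CNS2KO libraries (399 and 408). Column names begin with R for WT 1032 and WT 1037, and with YI for all other used libraries of both genotypes. The alternative with 3-digit WT numbers only leaves out WT 1032 and WT 1037.

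Gene reads ranged from 16557424 to 21836578 per library. Levels are given as CPM, reads scaled to each library's gene total as adjusted by a TMM factor. Treg marker genes summed to 3748 to 4397 CPM in WT and to 3899 to 4298 CPM in CNS2KO. Erythroid genes summed to 5.50 to 19.9 CPM in WT and to 23.9 to 125 CPM in CNS2KO, with the highest value in CNS2KO 399. Hbb-b1, a haemoglobin chain, stood at 78.4 CPM there and at 11.9 CPM in CNS2KO 408. B cell markers summed to 41.2 to 53.9 CPM in WT and to 37.8 to 80.4 CPM in CNS2KO, with Cd79b at 48.1 CPM in CNS2KO 399 against 21.9 to 30.2 CPM in WT. By log2 fold change, 2 of the 4 B cell markers were higher and 2 lower in CNS2KO (-0.37 to 0.83). Their median log2 level against the WT mean was 0.68 in CNS2KO 399 and -0.35 in CNS2KO 408. Myeloid markers summed to 6.98 to 28.2 CPM in WT and 24.0 to 27.0 CPM in CNS2KO. Of the 4 myeloid markers tested, only Lyz2 lay above WT in both CNS2KO libraries. By log2 fold change, 2 of these 4 were higher and 2 lower in CNS2KO (-0.39 to 1.27). CD8 and NK markers summed to 27.5 to 45.7 CPM in WT and to 22.7 to 29.1 CPM in CNS2KO. Markers of brown fat were at 0 in every library, those of testis summed to at most 0.865 CPM, and those of heart and skeletal muscle to at most 8.76 CPM. Across tested genes, the most similar pair of libraries crossed the genotypes: log2 CPM of WT 398 and CNS2KO 408 correlated with r = 0.986, against 0.955 for the CNS2KO pair and 0.936 to 0.975 for the 10 WT pairs.

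The respiratory chain passes electrons from NADH (complex I) or succinate (complex II) through complex III and cytochrome c to oxygen at complex IV. Complexes I, III and IV pump protons across the inner membrane, and complex V, the ATP synthase, uses the returning protons to make ATP. Complex II is encoded wholly in the nucleus, while the other complexes join nuclear subunits to a few that the mitochondrial genome encodes at their membrane-embedded core. Treg cells are known for their reliance on oxidative metabolism.

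Nuclear genes of the chain are classical targets of the factor NRF1 and of the ETS-family factor GABP. Their promoters were therefore searched for 4 motifs on both strands, in RefSeq windows (GRCm38.p6) from 250 bases before to 50 bases after the annotated start. A window was found for 69 of the 86 nuclear members, 75 windows in all, untested members and non-subunits included. For 65 of the 75, the bases after the start were found in a transcript of the gene. The NRF1 motif, GCGCA followed by any base and GCGC, lay in 18 of the 75 windows (24.0%), against 4.60% of all 32851 windows and 9.91% of the 11161 windows of genes tested here. The ETS motif CCGGAAG lay in 16 windows (21.3%), against 8.86% of all windows and 17.7% of those of tested genes. GGGCGG, the core of the SP-factor site, lay in 38.7% of the member windows, in 35.7% of all windows and in 60.4% of those of tested genes. TATAAA lay in 10.7%, 13.6% and 7.20%. For both of these motifs the direction of the difference thus depends on the background. The windows of tested genes were matched by symbol alone and cover 8725 of the 14424 genes tested, while members were also matched by synonym. Matches to different motifs may share bases, and a match is a string of letters, not a shown binding site.

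The 5 promoters below give examples of the NRF1 motif, the ETS motif or both. Each line gives the 200 bases before the start, 5′ to 3′ on the gene's own strand, which is the minus strand for all 5, with matches to the NRF1 or ETS motif in capitals. Cox6a1 (chr5:115348959-115349158) holds both motifs, Sdha (chr13:74350241-74350440) 3 copies of the NRF1 motif, and Atp5c1 (chr2:10080433-10080632) 1 copy. Another window of Atp5c1, not shown, holds neither motif. Cox6b1 (chr7:30626115-30626314) and Uqcrh (chr4:116075071-116075270) hold the ETS motif, here as its reverse complement.
Cox6a1: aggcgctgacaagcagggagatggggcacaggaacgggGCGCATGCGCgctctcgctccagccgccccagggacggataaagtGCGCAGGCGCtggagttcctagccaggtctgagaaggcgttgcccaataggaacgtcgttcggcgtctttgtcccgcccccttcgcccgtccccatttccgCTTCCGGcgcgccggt
Sdha: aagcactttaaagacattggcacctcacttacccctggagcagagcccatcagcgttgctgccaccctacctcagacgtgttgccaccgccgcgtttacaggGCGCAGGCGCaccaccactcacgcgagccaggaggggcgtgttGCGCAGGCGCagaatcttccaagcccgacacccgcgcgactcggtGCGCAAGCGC
Atp5c1: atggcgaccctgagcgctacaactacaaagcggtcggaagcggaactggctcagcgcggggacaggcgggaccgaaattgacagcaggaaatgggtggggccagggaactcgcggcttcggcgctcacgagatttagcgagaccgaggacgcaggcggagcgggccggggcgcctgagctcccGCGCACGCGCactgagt
Cox6b1: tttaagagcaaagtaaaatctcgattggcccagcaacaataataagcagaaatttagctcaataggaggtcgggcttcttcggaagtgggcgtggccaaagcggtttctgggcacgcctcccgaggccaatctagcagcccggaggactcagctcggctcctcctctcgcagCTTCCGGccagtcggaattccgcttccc
Uqcrh: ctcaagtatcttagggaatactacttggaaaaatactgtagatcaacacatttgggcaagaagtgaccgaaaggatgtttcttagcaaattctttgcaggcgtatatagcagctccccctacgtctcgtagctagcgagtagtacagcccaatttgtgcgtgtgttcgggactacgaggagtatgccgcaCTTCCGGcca

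Transcript levels were first set side by side per length, as CPM per kb of a representative transcript, averaged over the 7 libraries. The 79 tested nuclear genes had a median of 109 CPM per kb, and the 13 mitochondrial genes a median of 797 CPM per kb. The highest nuclear genes per kb were Uqcrh, the hinge protein of complex III, at 549 CPM per kb, and Cox4i1, a regulatory subunit of complex IV, at 529 CPM per kb. They were followed by the ATP synthase stalk subunits Atp5h at 510 and Atp5o at 441 CPM per kb. All 4 lay below the mitochondrial genes mt-Co1 at 4272, mt-Cytb at 3983 and mt-Nd1 at 1987 CPM per kb. Atp5h is uncertain, because 66.6% of the 50-base stretches of its transcript also occur in annotated transcripts of other loci.

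**Figure D1:**
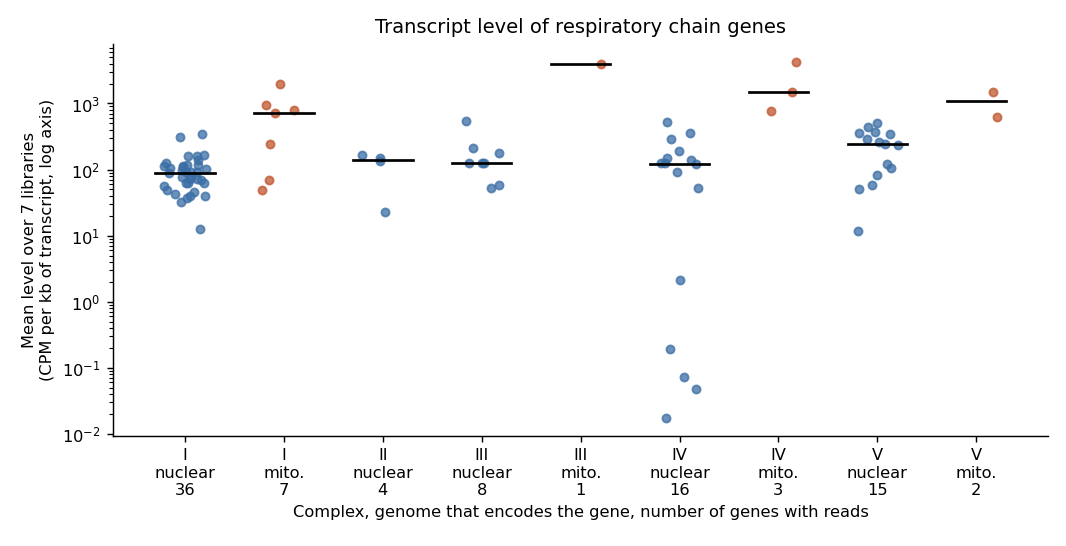
Each point is the mean level of a gene over the 7 libraries, in CPM per kb of transcript on a log axis, grouped by complex and by the genome that encodes it; black bars are medians. Genes with no read are not drawn. Most mitochondrial genes lie above the nuclear genes of the same complex, while 5 nuclear genes of complex IV, the tissue isoforms with reads, lie below 3 CPM per kb.

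Several complex IV subunits and a few others exist as a common form and a form typical of muscle, testis or other tissues, and the Treg libraries held almost only the common forms. Cox4i1 had 51900 reads over the 7 libraries and the lung-typical Cox4i2 had 5. Cox6a1 had 14260 reads and its heart and muscle form Cox6a2 had 6, all in WT 1037. The muscle form Cox7a1 had 1 read, against 11215 for Cox7a2. The testis form Cox8c had 13 reads, all in CNS2KO 399, against 8880 for Cox8a. Cox7b2, Cox8b and Ndufa4l2 had 0 reads, which allows at most 0.0246%, 0.0337% and 0.0146% of the reads of their sets, in terms of counting error only. Cox6b2, a testis form, was the only tissue form to be tested: it was at 0 in WT 402 and WT 405, and between 0.381 and 2.81 CPM in the other 5 libraries. Atp5g1, Atp5g2 and Atp5g3 encode the same mature c-ring protein. Atp5g3 gave 68.1 to 78.0% of their reads in each library, Atp5g1 13.5 to 21.7% and Atp5g2 5.09 to 10.7%, and 100% of the 50-base stretches of Atp5g2 and 66.0% of those of Atp5g1 occur elsewhere, so their own shares are uncertain.

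The comparison the study design implies is CNS2KO against WT. No gene passed a false discovery rate of 0.05 in edgeR's quasi-likelihood test: 0% of 14424 genes tested, and hence none of the 92 members, all of which had an adjusted p of 0.9999. DESeq2 and limma-voom also called 0 genes; at an unadjusted p under 0.05, edgeR gave 222 genes higher and 139 lower. The nuclear members lay mostly on the higher side in CNS2KO. Of 79 tested, 59 had a positive log2 fold change, against 47.4% of all genes tested, and their median was 0.28 against -0.03 over all genes tested. Both CNS2KO libraries lay above every WT library for 18 of the 79, where 3.76% of all genes tested did so, and below every WT library for 0, where 3% of all genes did so. An unadjusted p under 0.05 was reached by 9 nuclear members on the higher side, against 1.54% of all genes tested, and by 0 on the lower side, against 0.964%. These counts rest in part on single libraries. Without WT 405, 3 nuclear members reached an unadjusted p under 0.05 on the higher side in edgeR, and without WT 1037, 15 did, against 1.003 and 1.83% of all genes tested. With CNS2KO 399 left out, CNS2KO 408 lay above every WT library for 29 nuclear members (12.8% of all genes) and below for 10 (9.48%). With CNS2KO 408 left out, CNS2KO 399 lay above for 42 (20.1%) and below for 3 (19.8%). These counts describe the 7 libraries and carry no test of the list. In bulk RNA, more transcript per cell and more cells with a high level cannot be told apart.

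**Figure D2:**
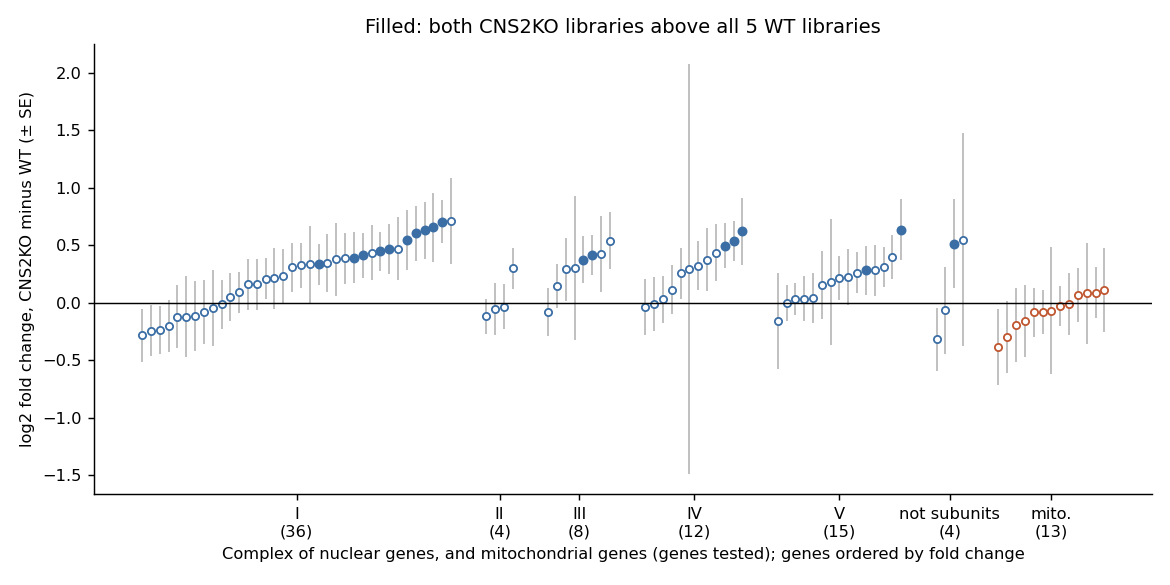
Points are log2 fold changes of CNS2KO minus WT with their standard errors for the tested nuclear genes of each complex, the 4 genes that are no subunits, and the 13 mitochondrial genes, ordered within each group. Filled points, 18 in all, are genes with both CNS2KO libraries above all 5 WT libraries. Filled points occur in complexes I, III, IV and V and among the non-subunits, and none in complex II or among mitochondrial genes.

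Complex I takes electrons from NADH, and 26 of its 36 tested nuclear genes by symbol had a positive fold change, with a median of 0.32. Without Ndufa4, now placed in complex IV, these were 25 of 35. The accessory subunits, which surround the catalytic core, had a median of 0.36 with 21 of 28 positive, while the 7 core subunits had a median of 0.09 with 4 positive. Ndufb11, an accessory subunit of the membrane arm, had the smallest p of all members. It stood at 92.6, 111, 103, 79.4 and 102 CPM in WT 398, 402, 405, 1032 and 1037, and at 175 and 143 CPM in CNS2KO 399 and 408. Both CNS2KO libraries were above the whole WT range, with means of 159 ± 22.4 CPM (SD, n = 2) and 97.5 ± 12.1 CPM (SD, n = 5). This gave a log2 fold change of 0.70 (SE 0.19, 95% interval 0.30 to 1.11) and an unadjusted p of 0.00276 in edgeR.

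Ndufa6, an accessory subunit at the foot of the peripheral arm, ranged from 149 to 192 CPM in WT with a median of 162 CPM, and stood at 234 and 223 CPM in CNS2KO 399 and 408. Its log2 fold change was 0.45 (SE 0.17, 95% interval 0.08 to 0.81). Ndufa2, another accessory subunit, ranged from 32.9 to 55.3 CPM in WT and stood at 70.1 and 69.8 CPM in the CNS2KO libraries. For both genes the groups did not overlap. The groups also did not overlap for 7 further complex I genes, with log2 fold changes of 0.65 for Ndufb2, 0.63 for Ndufb3, 0.55 for Ndufa3, 0.47 for Ndufs4, 0.41 for Ndufa7, 0.39 for Ndufc2 and 0.33 for Ndufv2. Ndufv2, which holds an iron-sulfur cluster near the NADH site, was the only core subunit among them. Both CNS2KO libraries thus lay above every WT library for 10 of the 36 tested complex I genes, against 3.76% of all genes tested. They lay below every WT library for 0, against 3%. The lower CNS2KO library exceeded the highest WT library by 2.72% for Ndufb3 up to 28.5% for Ndufb11.

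On the lower side, the smallest p values of complex I belonged to Ndufa8, Ndufb10 and Ndufs3. Ndufa8, an accessory subunit with cysteine motifs, ranged from 67.3 to 107 CPM in WT and stood at 73.8 and 60.8 CPM in CNS2KO 399 and 408, so the groups overlapped (log2 fold change -0.28, SE 0.23, 95% interval -0.79 to 0.22). Ndufb10 had a log2 fold change of -0.24, as did the core subunit Ndufs3 with -0.24. Ndufa9 and Ndufs1, which with Ndufv2 had the highest CPM of the complex, had log2 fold changes of 0.35 and 0.09, and their groups overlapped. Ndufs1, the largest core subunit, stood at 184 CPM in CNS2KO 399 and at 232 CPM in CNS2KO 408, on either side of the WT mean of 196 ± 24.1 CPM (SD, n = 5).

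Complex II, which also serves the citric acid cycle, had 1 of 4 genes with a positive fold change, and a median of -0.04. Sdha, the flavoprotein that oxidizes succinate, stood at 405, 436, 451, 411 and 491 CPM in WT 398, 402, 405, 1032 and 1037 and at 390 and 417 CPM in CNS2KO 399 and 408. Its log2 fold change was -0.12 (SE 0.15, 95% interval -0.45 to 0.21). The iron-sulfur subunit Sdhb stood at 158 to 216 CPM in WT and at 242 and 197 CPM in CNS2KO 399 and 408 (log2 fold change 0.30, SE 0.18). The membrane anchors Sdhc and Sdhd had log2 fold changes of -0.05 and -0.03. The groups overlapped for all 4 genes, and the difference between complex II and the other complexes was not tested.

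Complex III hands electrons from ubiquinol to cytochrome c, and 7 of its 8 genes had a positive fold change, with a median of 0.34. Its 5 small subunits were all on the positive side, with a median of 0.42 and values from 0.29 to 0.54. Uqcrh stood at 267, 287, 261, 226 and 329 CPM in WT 398, 402, 405, 1032 and 1037 and at 383 and 348 CPM in CNS2KO 399 and 408, above the whole WT range. Its log2 fold change was 0.42 (SE 0.17, 95% interval 0.04 to 0.79). Uqcr10, another small subunit, ranged from 43.4 to 56.4 CPM in WT and stood at 64.0 and 64.6 CPM in CNS2KO. The core proteins Uqcrc2 and Uqcrc1 had log2 fold changes of 0.14 and -0.08, and their groups overlapped.

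Uqcrfs1, the Rieske iron-sulfur protein of complex III, varied between libraries more than any other tested nuclear member with reads in every library. It stood at 99.4, 20.9, 119, 115 and 25.7 CPM in WT 398, 402, 405, 1032 and 1037, a span of 5.68-fold, and at 49.1 and 138 CPM in CNS2KO 399 and 408. WT 402, WT 1037 and CNS2KO 399 were thus the low libraries, and the groups overlapped (log2 fold change 0.30, SE 0.63, 95% interval -1.07 to 1.68). None of the 50-base stretches of its transcript occurs in annotated transcripts of other loci.

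Complex IV reduces oxygen, and 10 of its 12 tested nuclear genes had a positive fold change, with a median of 0.31. Cox6c, a small subunit of the membrane part, stood at 125, 133, 118, 118 and 147 CPM in WT 398, 402, 405, 1032 and 1037 and at 169 and 203 CPM in CNS2KO 399 and 408, with no overlap. Its log2 fold change was 0.54 (SE 0.17, 95% interval 0.16 to 0.91). Its level is less certain, since 21.1% of its 50-base stretches occur in other loci, mainly Cox6c2. Cox6b1, which faces the cytochrome c side, ranged from 61.2 to 87.1 CPM in WT and stood at 111 and 105 CPM in CNS2KO, again without overlap (log2 fold change 0.50, SE 0.19). Cox7a2, the common Cox7a form, ranged from 37.8 to 97.9 CPM in WT and stood at 119 and 104 CPM (log2 fold change 0.62, SE 0.29). Its relative Cox7a2l, known for joining complexes III and IV into supercomplexes, stood at 564 CPM in CNS2KO 399 and at 315 CPM in CNS2KO 408, above and just inside the lower end of the WT range of 314 to 435 CPM. Cox4i1 stood at 496 and 302 CPM, above and below the WT range of 349 to 444 CPM, which gave a log2 fold change of 0.03 (95% interval -0.41 to 0.47). Ndufa4, once listed in complex I and now placed in complex IV, stood at 123 to 142 CPM in 4 WT libraries, at 202 CPM in WT 1037, and at 170 and 188 CPM in CNS2KO. The other common forms of the paralog sets had log2 fold changes of 0.44 for Cox7b, 0.11 for Cox6a1 and -0.01 for Cox8a.

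**Figure D3:**
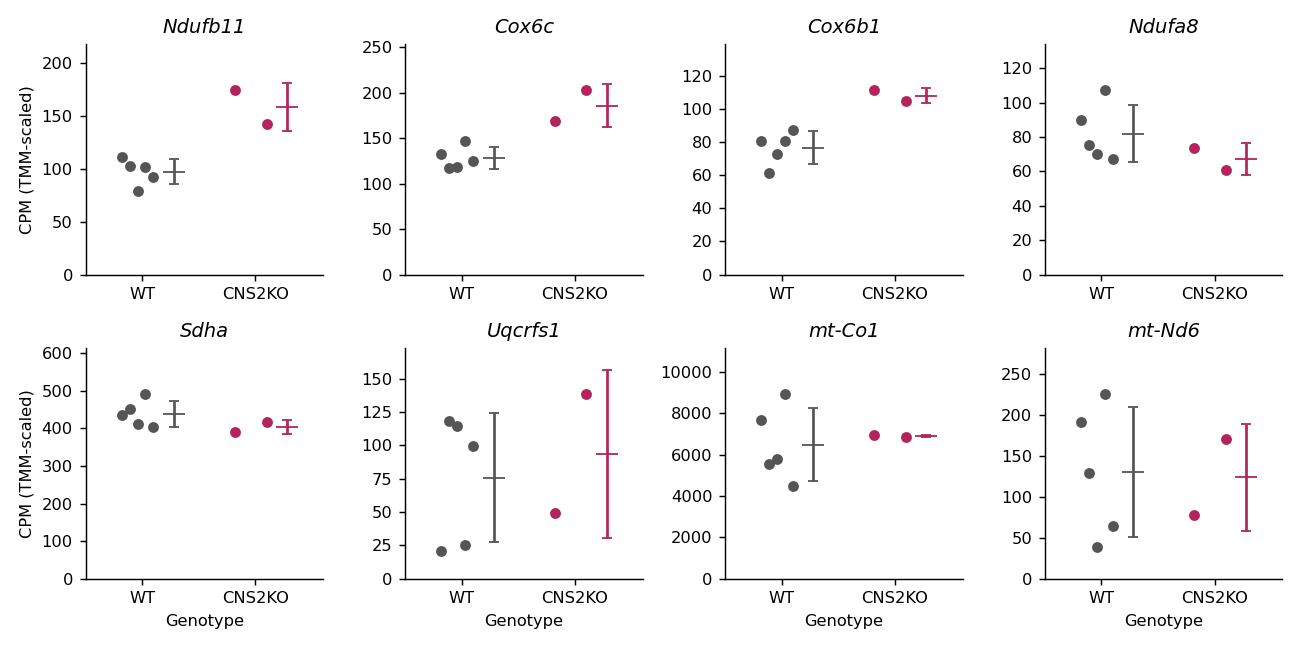
CPM of 8 members in each library (points), with the mean and SD of the 5 WT and the 2 CNS2KO libraries beside them; each axis starts at 0. Ndufb11, Cox6c and Cox6b1 show no overlap between the genotypes; Ndufa8, Sdha, Uqcrfs1, mt-Co1 and mt-Nd6 do, and Uqcrfs1 and mt-Nd6 spread over more than 5-fold within WT.

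Complex V had 13 of 15 genes on the positive side and a median of 0.21. The catalytic head and central stalk, where ATP is made, had a median of 0.04. Atp5a1 and Atp5b, the head's main subunits, had the highest CPM of all nuclear members: Atp5a1 averaged 888 ± 54.1 CPM over WT (SD, n = 5) against 907 ± 102 CPM over CNS2KO (SD, n = 2), and Atp5b 672 ± 54.7 against 669 ± 118 CPM. Their log2 fold changes were 0.03 (95% interval -0.28 to 0.33) and -0.0048 (95% interval -0.35 to 0.34). Atp5c1, the rotating gamma subunit, had a log2 fold change of 0.21 (SE 0.19). The 4 peripheral stalk genes had values from 0.26 to 0.40, and the 3 other membrane subunits from 0.15 to 0.63, with a median of 0.18. Atp5j2, a membrane subunit, ranged from 59.3 to 117 CPM in WT and stood at 148 and 120 CPM in CNS2KO 399 and 408, just without overlap (log2 fold change 0.63, SE 0.27). Atp5e, the smallest subunit of the head, lay above WT by 0.990% in the lower CNS2KO library. The c-ring genes Atp5g1, Atp5g2 and Atp5g3 had log2 fold changes of 0.22, -0.16 and 0.03. Among the non-subunits, the pseudogene Atp5l2 had 0.86 to 2.73 CPM and overlapped with WT, Atp5s (0.51) lay above WT in both CNS2KO libraries and Atp5sl (-0.32), among the 4 smallest p on the lower side, overlapped with WT.

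Library by library, each gene was set against its own mean log2 CPM over WT. The nuclear members had a median of 0.35 in CNS2KO 399 and 0.23 in CNS2KO 408. In WT the medians were -0.17 in WT 1032, -0.06 in WT 398, -0.03 in WT 405, 0.07 in WT 402 and 0.22 in WT 1037. WT 1037 was thus level with CNS2KO 408, and CNS2KO 399 alone stood above all others. With CNS2KO 399 left out, the nuclear median of the edgeR fit was 0.20 with 51 of 79 positive, and with CNS2KO 408 left out it was 0.32 with 64 of 79 positive. Nuclear members took 1.03 ± 0.0730% of gene reads over WT (SD, n = 5) and 1.14 ± 0.0944% over CNS2KO (SD, n = 2). WT ranged from 0.939 to 1.12%, CNS2KO 408 lay inside that range at 1.07% and CNS2KO 399 above it at 1.20%. CNS2KO 399 is also the library with the highest erythroid and B cell sums, and the part of that difference in the result was not tested.

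**Figure D4:**
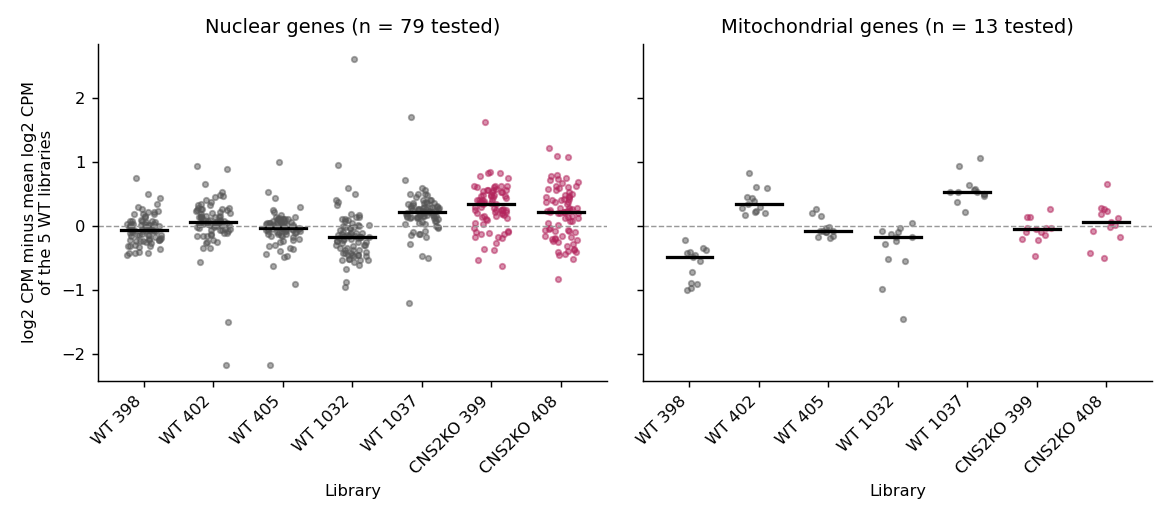
Points are genes, placed by log2 CPM minus the gene's mean log2 CPM over the 5 WT libraries, in each library, for the 79 tested nuclear and the 13 mitochondrial members; bars are medians and the dashed line marks the WT mean. The nuclear medians are highest in CNS2KO 399 (0.35), CNS2KO 408 (0.23) and WT 1037 (0.22), while the mitochondrial medians run from -0.48 in WT 398 to 0.54 in WT 1037 with both CNS2KO libraries between.

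Most nuclear members have short transcripts, and the fold changes were therefore also read by length. The 51 tested nuclear members under 1000 bases had a median log2 fold change of 0.32 with 41 positive, and the 28 longer ones a median of 0.18 with 18 positive. All 9 members with an unadjusted p under 0.05 in edgeR were in the shorter class. Short genes as a whole also leaned higher at this limit. Of the 2461 tested genes under 1000 bases, 57 were higher and 6 lower, against 162 and 128 of the 11564 longer ones. Without ribosomal protein genes and members, 40 of 2236 short genes were higher and 6 lower. Both CNS2KO libraries lay above every WT library for 122 of the 2461 and below for 54. The median log2 fold change over all 2461 was 0.03, and 0.01 without ribosomal protein genes and members. In CNS2KO 399, all genes under 1000 bases had a median of 0.25 against their WT mean, and short nuclear members 0.40. In CNS2KO 408 these medians were -0.04 and 0.28. WT 402 and WT 1037 had medians of 0.25 and 0.27 for all short genes, as high as CNS2KO 399. The 25 nuclear members with over 5% of their 50-base stretches shared with other loci had a median of 0.28, and the 54 others 0.25. Median length was 693.5 bases for the accessory and 1623 for the core subunits of complex I, and 2065.5 for complex II. In complex III it was 445 bases for the small and 1653 for the core subunits. In complex V it was 1735 for the head and central stalk and 596 for the c ring, whose median fold change was 0.03. The part of length in differences between these groups was not tested.

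The promoter motifs were set beside these values. Of the 18 members with both CNS2KO libraries above WT, 16 had a promoter window, 17 windows in all. The NRF1 motif lay in 1 of them (Ndufa6) and the ETS motif in 3 (Atp5e, Cox6b1 and Uqcrh), against 18 and 16 of the 75 windows of all nuclear members. Sdha, with the 3 NRF1 matches shown above, had a log2 fold change of -0.12, and Cox6a1, with both motifs, one of 0.11.

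Of the 13 mitochondrial genes, 4 had a positive and 9 a negative log2 fold change, with a median of -0.07 and values from -0.39 for mt-Nd4l to 0.11 for mt-Atp8. For 0 of the 13 did both CNS2KO libraries lie outside the WT range, where 3.76% of all genes tested lay above it and 3% below. An unadjusted p under 0.05 in edgeR was reached by 0 of the 13, against 1.54% of all genes on the higher and 0.964% on the lower side. With 13 genes, counts of 0 are near these shares. Their share of gene reads was 1.98 ± 0.475% in WT (SD, n = 5) and 1.89 ± 0.0709% in CNS2KO (SD, n = 2). The sign of the median rested on single libraries: it was 0.049 without CNS2KO 399, 0.051 without WT 402 and 0.069 without WT 1037. The difference between nuclear and mitochondrial members was not tested.

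**Figure D5:**
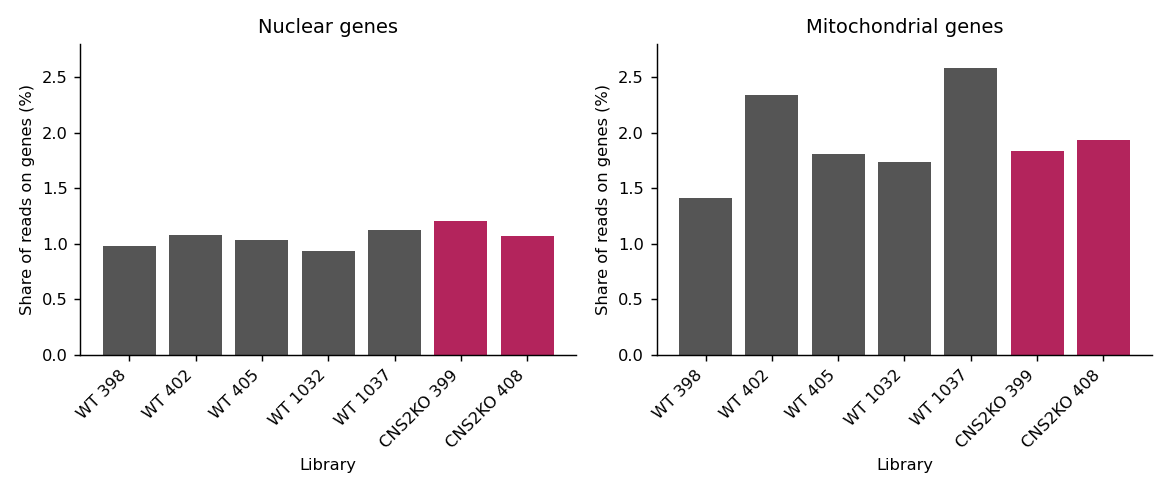
Bars give the share of gene reads, in %, that fell on the 86 nuclear and the 13 mitochondrial members in each library; both axes start at 0. The nuclear share lies between 0.939 and 1.20%, and the mitochondrial share between 1.42% in WT 398 and 2.59% in WT 1037, with CNS2KO 399 and 408 at 1.84 and 1.94%.

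mt-Co1, the catalytic subunit of complex IV, had the highest level. It stood at 4501, 7682, 5543, 5776 and 8911 CPM in WT 398, 402, 405, 1032 and 1037 and at 6939 and 6845 CPM in CNS2KO 399 and 408, inside the WT range (log2 fold change 0.09, SE 0.22, 95% interval -0.39 to 0.57). mt-Cytb, the only mitochondrial gene of complex III, stood at 3302, 5096, 4264, 3994 and 6501 CPM in the same WT order and at 4246 and 4493 CPM in CNS2KO (log2 fold change -0.08, 95% interval -0.55 to 0.38). WT 398 was lowest and WT 1037 highest for both genes.

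The 7 complex I genes of the mitochondrial genome encode its proton-pumping membrane core. Their log2 fold changes were 0.07 for mt-Nd1, -0.01 for mt-Nd2, 0.08 for mt-Nd3, -0.03 for mt-Nd4, -0.39 for mt-Nd4l, -0.08 for mt-Nd5 and -0.07 for mt-Nd6. mt-Nd1 ranged from 1367 to 2581 CPM in WT and stood at 1792 and 2138 CPM in CNS2KO 399 and 408. mt-Nd6, which is encoded on the strand opposite to the other mitochondrial protein genes, stood at 65.0, 192, 129, 39.2 and 225 CPM in WT 398, 402, 405, 1032 and 1037 and at 77.2 and 170 CPM in CNS2KO. Its span within WT of 5.74-fold was the widest of the 13. The counting is not stated to use strand, so reads of mt-Nd6 and of transcripts antisense to it cannot be told apart. In complex IV, mt-Co2 and mt-Co3 had log2 fold changes of -0.30 (SE 0.31) and -0.16 (SE 0.31), and in complex V, mt-Atp6 and mt-Atp8 had -0.20 and 0.11.

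The spread between WT libraries was set beside that of genes of like level. The SD of log2 CPM over the 5 WT libraries had a median of 0.40 over the 9 mitochondrial genes with a mean above 500 CPM, against 0.19 over the 274 tested genes above that level. For nuclear members between 10 and 1000 CPM it was 0.26, against 0.30 over the 8255 tested genes in that range. Of the mitochondrial ribosomal RNAs, mt-Rnr2 ranged from 9359 CPM in WT 405 to 19490 CPM in WT 1037. mt-Rnr1 ranged from 1453 CPM in WT 1032 to 3124 CPM in WT 402, with WT 1037 at 2969 CPM. Their log2 fold changes were 0.04 and 0.10. Of 22 mitochondrial transfer RNA rows, 17 had a read, 8 to 40 reads in all per library, and 0 were tested.

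Nuclear chromosomes carry copies of mitochondrial DNA, and a read from a shared stretch may align to several places. All 50-base stretches of mt-Co2 occur in annotated transcripts of other loci as well, as do 99.9% of those of mt-Co3, 99.5% of mt-Atp6, 98.8% of mt-Nd4l, 98.0% of mt-Nd3, 62.2% of mt-Nd4 and 51.1% of mt-Co1. mt-Nd2 and mt-Nd5 share 8.2 and 7.6%, and mt-Nd1, mt-Nd6, mt-Cytb and mt-Atp8 share 0%. Copies outside annotated transcripts were not searched, so 0% does not show that a gene's reads align to 1 place only. Reads that aligned to several places make up 14.7 to 19.7% of the columns and were not assigned to genes. The levels of the shared genes are therefore uncertain, among them the lowest per kb (mt-Nd3 at 48.4 and mt-Nd4l at 69.8 CPM per kb). Many reads were still assigned to other shared genes: mt-Co2, mt-Co3 and mt-Atp6 had 779, 1467 and 1516 CPM per kb. Gm10925, a nuclear near copy of mt-Atp6, had 150 to 459 CPM. The share of multiply aligned reads was lowest in WT 398 (14.7%) and highest in WT 1037 (19.7%), as was the mitochondrial share, and its part in that spread was not tested. The 5 genes with over 90% shared stretches had a median WT SD of 0.62 on the log2 scale, and the 8 others 0.40. Their median log2 fold changes were -0.20 and -0.02.

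Other genes of the pathway were read from lists of fixed members. Among subunits that the symbols miss, the electron carrier and the ATP synthase inhibitor Atpif1, 5 of 6 had a positive fold change, against 47.4% of all genes tested. Their median was 0.29. Cycs, cytochrome c, had 0.33 and Cyc1, the cytochrome of complex III, had -0.03. For 0 of the 6 did both CNS2KO libraries lie outside the WT range, where 3.76% of all genes tested lay above it and 3% below. Of 28 assembly factors tested, 19 were positive, against 47.4% of all genes tested, with a median of 0.13. An unadjusted p under 0.05 in edgeR was reached by 3 on the higher side and 1 on the lower side, against 1.54 and 0.964% of all genes tested. Those were Cox17, a copper chaperone for complex IV (0.57), the complex I factors Ndufaf1 (0.56) and Ndufaf4 (0.59), and Bcs1l (-0.76), which inserts the Rieske protein into complex III. They were chosen after their values were seen. The most abundant assembly factors, Sdhaf2 and Surf1, had -0.18 and 0.41.

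Genes that maintain and express the mitochondrial genome were balanced, with 11 of 21 positive and a median of 0.00. Ptcd3 and Hsd17b10, the most abundant of them, had log2 fold changes of 0.22 and 0.29, and Peo1, the helicase of mitochondrial DNA, had -0.82 with an unadjusted p of 0.0412 in edgeR. Regulators of mitochondrial genes had a median of 0.01, with 0.03 for Myc and 0.12 for Creb1. Gabpb1, a subunit of GABP, stood at 136 and 86.0 CPM in CNS2KO 399 and 408 against 66.9 to 83.3 CPM in WT (log2 fold change 0.51, SE 0.21). Gabpa, another GABP subunit, had a log2 fold change of 0.03 and Nrf1 one of -0.02, and for both the groups overlapped. Peo1, Gabpb1, Gabpa and Nrf1 were named after their values were seen. The 16 citric acid cycle genes had a median of 0.06 with 11 positive, and the most abundant, Pdha1 and Mdh2, had 0.17 and 0.21. No gene of these lists passed the false discovery rate of 0.05.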

How the data were processed

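Total RNA from sorted Treg cells was extracted with Trizol, amplified with a SMARTer kit and prepared for the Ion Proton, per the labels' protocols. STAR, BWA, edgeR and the build mm9 are listed, with no versions, per the submitters' processing notes; annotation and read counter: not given in the sources used here. Raw counts of reads for each symbol, and log2 values whose scaling is not stated, were deposited by the authors. Of the value columns of each file, 2 numbered 407 were not used, and 5 summary rows of the counts were kept out of library sizes. No pair of used libraries agreed within sampling noise (smallest chi-square per degree of freedom 29.9).

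Counts were filtered with filterByExpr, scaled by TMM and tested with edgeR 4.0.16 in R 4.3.3 (two-sided quasi-likelihood test, Benjamini-Hochberg over all 14424 genes tested, FDR 0.05). The standard error is the log2 fold change over the root of F. CPM are TMM-scaled; 3 counts correspond to 0.142 to 0.182 CPM, which covers counting error only. Groups share only the unused number 407. Lengths and shared 50-base stretches came from GENCODE vM21 transcripts (GRCm38), using the shortest principal transcript, so they are of another build than the counts. Promoter windows came from RefSeq. The test was checked on simulated counts, in which the planted changes were larger than that of any member. That check does not cover changes of the size seen here. The members, the lists and the naming rule were chosen with earlier results of these data known. The rule named members past the FDR, every mitochondrial member, the 3 of highest CPM per nuclear complex, the 4 smallest p per direction, the paralog sets and the 2 highest of each further list; genes with both CNS2KO libraries above WT, Uqcrfs1 and a few others were added after their values were seen. Alternatives were other scalings, no filter, DESeq2 1.42.0, limma-voom and limma 3.58.1 on the authors' log2 values, 3-digit WT numbers only, other denominators of read shares, an FDR of 0.1, and each library left out.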

Additional observations from a re-analysis of the deposited data

Results flagged for a closer look

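Of 48 sets of 5 WT values checked for a sample far from the others, 1 was marked, where chance marks about 1 set in 20. Ndufa4 stood at 202 CPM in WT 1037 and at 142 CPM in the next WT library, WT 402. CNS2KO 399 and 408, at 170 and 188 CPM, lay between these values.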

How the results depend on the processing

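The nuclear median log2 fold change stayed positive under every alternative, from 0.20 without CNS2KO 399 to 0.32 without CNS2KO 408, and at 0.24 with 3-digit WT numbers only. No nuclear or mitochondrial member passed the FDR under any alternative run; without a filter on low counts 8 genes did, none of them members. Chosen after seeing the data, the count of nuclear members with every CNS2KO library above every WT library was 15 to 18 under the other scalings, 29 with 3-digit WT numbers only (7.95% of all genes), and 18 to 42 with a library left out; the cause was not tested beyond the smaller number of libraries compared. It was 27 without WT 1037 (5.86% of all genes), 29 without CNS2KO 399 (12.8%) and 42 without CNS2KO 408 (20.1%). The count below every WT library, 0 under the main setting, was 10 without CNS2KO 399 (9.48% of all genes), 3 without CNS2KO 408 (19.8%), 2 without WT 1032 (4.80%) and 2 with 3-digit WT numbers only (7.97%). Nuclear members with an unadjusted p under 0.05 on the higher side in edgeR numbered 3 to 15 with a library left out.

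With 3-digit WT numbers only, the mitochondrial median turned to 0.0227, mt-Co3 to 0.0291, mt-Cytb to 0.0505, mt-Nd2 to 0.0227, Sdhd to 0.129, Uqcrc1 to 0.0180 and Cox8a to 0.0783. In limma-voom, mt-Nd2 was 0.0303, mt-Nd6 0.109 and Cox4i1 -0.0062, and on the authors' log2 values 0.0279, 0.0985 and -0.0062. The cause was not tested.

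With each library left out, log2 fold changes that turned sign ranged from -0.17 to 0.0694 (mitochondrial median), -0.0694 to 0.21 (mt-Nd1), -0.27 to 0.21 (mt-Nd2), -0.10 to 0.38 (mt-Nd3), -0.11 to 0.0514 (mt-Nd4), -0.17 to 0.0222 (mt-Nd5), -0.75 to 0.39 (mt-Nd6), -0.0650 to 0.27 (mt-Atp8), -0.0175 to 0.23 (mt-Co1), -0.18 to 0.0694 (mt-Cytb), -0.11 to 0.0418 (Sdhd), -0.41 to 0.19 (Uqcrc1), -0.10 to 0.25 (Ndufs1), -0.37 to 0.33 (Cox4i1), -0.22 to 0.61 (Cox7a2l), -0.17 to 0.34 (Cox6a1), -0.0299 to 1.30 (Cox6b2), -0.40 to 0.29 (Cox8a), -0.0852 to 0.13 (Atp5a1), -0.19 to 0.16 (Atp5b), -0.16 to 0.53 (Atp5g1), -0.90 to 0.32 (Atp5g2) and -0.0817 to 0.14 (Atp5g3). Where a CNS2KO library was left out, the lone one is assumed to vary like WT. The nuclear WT share was 0.937% without Atp5s, Atp5sl and the most read member, and 1.11% with the 10 most read rows out of the denominator, which put the mitochondrial CNS2KO share at 2.03%. No paired analysis was possible because the groups share only the number 407, whose columns were not used.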
